A study of Homo sapiens with 18 samples.

Results

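The genes described here are YAP1 and TEAD1, which code for a coactivator and its DNA-binding partner at the end of the Hippo pathway, and 8 genes known as their targets or as pathway regulators: CCN1, CCN2, ANKRD1, AMOTL1, AMOTL2, LATS2, AJUBA and CRIM1. They were taken by gene symbol from the deposited expression table, where all 10 were found among 37096 named genes, and all 10 were among the 17755 genes with enough signal to be tested. Poly-A RNA was sequenced from HEK293T, an embryonic kidney line of human origin that takes up plasmids readily. Cells were transfected with MethionaseNLS, a methionine-degrading enzyme with a nuclear localisation signal, or with the empty vector pLEX. Vps34-IN1 inhibits VPS34, the lipid kinase that makes phosphatidylinositol 3-phosphate on endosomes and autophagosomes. DMSO was its vehicle.

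The 18 libraries formed 6 groups of 3, all of the same wild-type line. Methionase cells and vector cells were each taken at 24 h of transfection after 12 h with 5 µM Vps34-IN1, at 24 h with DMSO, and at 12 h with DMSO. No group received an inactive methionase, so the activity of the enzyme and the presence of a foreign nuclear protein cannot be told apart. The labels do not give the length of DMSO exposure in the 12 h groups, and time with vehicle and time of transfection cannot be told apart there. Whether replicates were separate cultures is not stated either, and p-values therefore cover the spread among these libraries, which may be technical. In bulk RNA, fewer cells of a type and less RNA per cell cannot be told apart.

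In the Hippo pathway, the kinases MST1 and MST2 activate LATS1 and LATS2, which phosphorylate YAP and its paralog TAZ and keep them in the cytoplasm. When this chain is inactive, YAP enters the nucleus, binds TEAD factors and raises transcription of genes such as CCN1 and CCN2. YAP is controlled mainly through its phosphorylation and place in the cell, which mRNA levels do not show. The pathway responds in cultured cells to cell density, stretch, the actin cytoskeleton and nutrient supply. AMOTL2 and LATS2, which restrain YAP, are themselves transcribed with its help and act as feedback.

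TEAD factors bind the core GGAATG, and its copies near the starts of these genes were counted. RefSeq promoters of build GRCh38.p14 were given for 7 of the 10 genes, in 9 windows reaching from 250 bases before to 50 bases after a start. CCN1, TEAD1 and CRIM1 were not among them. The 4 promoters below are the 250 bases before the start, written 5′ to 3′ on the gene's strand. GGAATG or its reverse complement CATTCC is in capitals. In ANKRD1 a match to TGANTCA, a loose form of the AP-1 motif in which N is any base, is also in capitals. The 4 promoters are those of the target genes CCN2 and ANKRD1, of AMOTL2, and of YAP1 itself. On the deposited scale YAP1 mRNA was called in no treatment comparison. CCN2 lies on the minus strand and its printed bases are chr6:131951373-131951622. ANKRD1 is on the minus strand, with printed bases chr10:90921088-90921337. The AMOTL2 start is the downstream of 2 listed, on the minus strand, with printed bases chr3:134374448-134374697. YAP1 is on the plus strand, with printed bases chr11:102110197-102110446.
CCN2: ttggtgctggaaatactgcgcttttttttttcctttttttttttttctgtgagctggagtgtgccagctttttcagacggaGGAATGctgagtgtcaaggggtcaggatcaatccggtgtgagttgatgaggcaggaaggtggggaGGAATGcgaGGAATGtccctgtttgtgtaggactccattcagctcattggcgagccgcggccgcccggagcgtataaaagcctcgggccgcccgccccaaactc
ANKRD1: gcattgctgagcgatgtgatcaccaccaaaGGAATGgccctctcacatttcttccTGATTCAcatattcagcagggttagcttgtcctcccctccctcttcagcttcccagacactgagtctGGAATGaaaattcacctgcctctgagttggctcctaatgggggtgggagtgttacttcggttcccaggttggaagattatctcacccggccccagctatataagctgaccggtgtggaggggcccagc
AMOTL2: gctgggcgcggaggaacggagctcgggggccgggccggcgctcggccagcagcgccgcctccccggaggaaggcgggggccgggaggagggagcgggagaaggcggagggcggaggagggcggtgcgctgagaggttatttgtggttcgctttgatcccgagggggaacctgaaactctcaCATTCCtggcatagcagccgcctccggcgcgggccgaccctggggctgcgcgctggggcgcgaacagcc
YAP1: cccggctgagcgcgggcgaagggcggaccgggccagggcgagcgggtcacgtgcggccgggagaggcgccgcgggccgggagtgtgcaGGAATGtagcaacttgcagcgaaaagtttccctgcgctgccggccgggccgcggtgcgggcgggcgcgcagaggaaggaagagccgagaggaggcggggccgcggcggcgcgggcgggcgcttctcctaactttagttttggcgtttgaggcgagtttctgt

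The CCN2 promoter held 3 copies of GGAATG, with first bases at -169, -104 and -95 from the start, the last pair separated by 3 bases. ANKRD1 held 2 copies, at -220 and -128, and 1 match to TGANTCA at -195, which did not overlap them. AMOTL2 held 1 copy on the opposite strand at -69 and YAP1 held 1 at -162. Outside the printed bases, AJUBA held 1 copy at -59 of its downstream start and LATS2 held 1 at 10 bases after its start, while the AMOTL1 window, at a start inside the gene, held none. Both strands were searched over the windows of 300 bases. Among all 35116 such windows, 14.0% held at least 1 copy of GGAATG, 1.37% at least 2 and 0.128% at least 3, and 7.71% held TGANTCA. These matches are a description of letters and not of binding.

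The libraries held between 18278586 and 20825232 reads on named genes. All 7 marker genes of the HEK293T line had reads in every library, with 22876 to 32871 reads in sum, against 73 to 112 reads in sum for the 9 marker genes of leukocytes, endothelium, liver, fibroblasts, astrocytes and muscle that the table holds. Of these, GFAP had 27 to 63 reads per library and COL3A1 had 24 to 45. CD3E and CDH5 had at most 1 read in any library. RNA composition moved with the treatments. Reads of the 2 mitochondrial ribosomal RNAs were 1.89% to 2.47% of the total in methionase cells with Vps34-IN1, 0.985% to 1.35% in vector cells with Vps34-IN1, 0.938% to 2.01% in methionase cells at 24 h in DMSO and 0.480% to 0.657% in vector cells at 24 h in DMSO. At 12 h they were 0.324% to 0.383% in methionase cells and 0.206% to 0.292% in vector cells. Reads of 57 replication-dependent histone genes followed the treatments too, at 0.159% to 0.175% with both treatments, 0.0684% to 0.0842% with Vps34-IN1 alone, 0.0618% to 0.0952% with methionase alone at 24 h, and 0.0158% to 0.0171% with neither. The part of this composition in the results below was not tested.

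Methionase alone and Vps34-IN1 alone each raised the 3 classical target genes CCN1, CCN2 and ANKRD1, and lowered AJUBA. With Vps34-IN1 present, methionase lowered CCN1 and CCN2 in place of raising them. Differences are log2 values on the authors' variance-stabilised scale with the standard error from limma, and calls were made below an adjusted p of 0.05 (Benjamini-Hochberg, over all 17755 genes). At 24 h in DMSO, methionase raised 3 and lowered 2 of the 10 genes (limma), in a comparison that called 39.2% of all genes, 18.1% higher and 21.1% lower. Vps34-IN1 in vector cells raised 7 and lowered 1, where 40.1% of all genes were called, 20.2% higher and 19.9% lower. Under Vps34-IN1, methionase raised none and lowered 6, where 39.5% of all genes were called, 17.3% higher and 22.2% lower. With libraries set to equal medians, the majority over all genes turned or widened: methionase in DMSO gave 4012 higher and 3176 lower, against 3210 and 3745 on the deposited scale, Vps34-IN1 in vector cells 4544 and 2831, against 3595 and 3527, and methionase under Vps34-IN1 3738 and 3429, against 3079 and 3937. The median difference of the 10 genes was 0.12, 0.31 and -0.44 in these comparisons, where the median over all genes tested was 0.01, 0.00 and 0.01. The first 2 comparisons share the 3 libraries of vector cells in DMSO at 24 h.

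**Figure D1:**
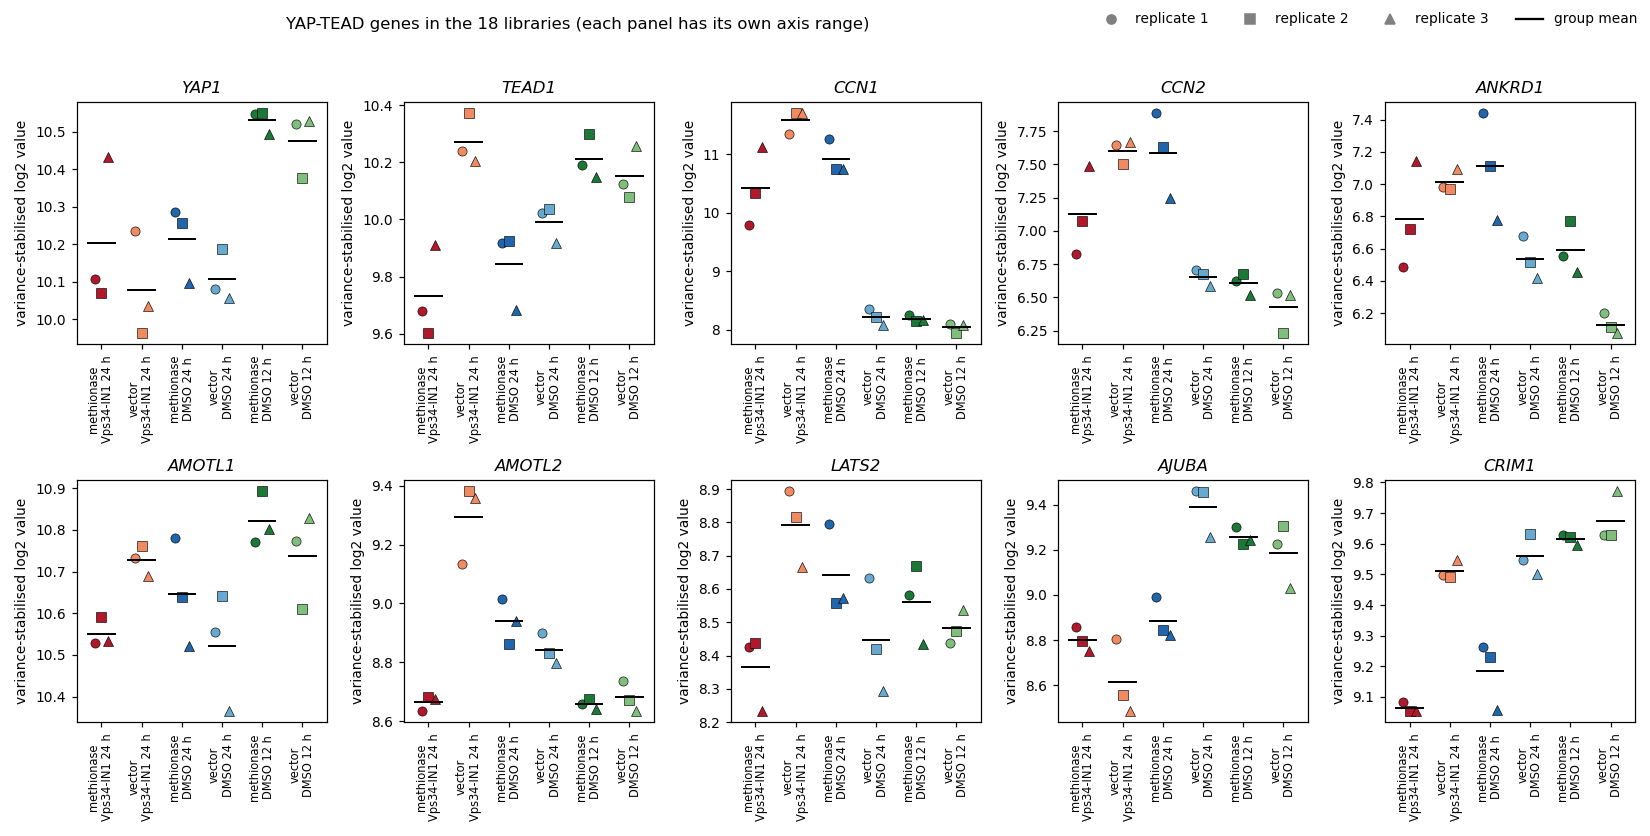
Variance-stabilised log2 value (vertical axis, with its own range in each panel) of the 10 genes in each of the 18 libraries, by group along the horizontal axis; symbols mark the replicate number and bars the group mean. All libraries of the 3 treated groups at 24 h lie above the other libraries for CCN1 and CCN2 and below them for AJUBA, while for ANKRD1 the libraries with both treatments overlap the remaining ones.

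CCN1, on chromosome 1 (GRCh38.p14, 85580761 to 85583950), codes for a secreted matricellular protein, CYR61, and is a widely used readout of YAP. It had 795, 1208 and 2149 normalised reads in methionase cells with Vps34-IN1, against 2518, 3247 and 3231 in vector cells with Vps34-IN1. In DMSO at 24 h it had 2368, 1624 and 1633 normalised reads in methionase cells, against 245, 217 and 189 in vector cells. At 12 h the methionase cells had 223, 204 and 205 normalised reads, against 193, 165 and 189 in vector cells. No library overlapped between methionase and vector cells in any of the 3 settings, but the direction was turned under Vps34-IN1. The mean of normalised reads was 8.64-fold higher in methionase cells than in vector cells at 24 h in DMSO. The difference on the variance-stabilised log2 scale was 2.702 ± 0.193 (limma, adjusted p = 3.91e-10). Folds here and below are ratios of mean normalised reads, a different measure from the log2 difference beside them. In vector cells Vps34-IN1 raised CCN1 13.8-fold in mean reads, with a difference of 3.37 ± 0.19 on the variance-stabilised scale (adjusted p = 4.52e-12). Under Vps34-IN1 methionase lowered it, with a log2 difference of -1.17 ± 0.19 (adjusted p = 4.44e-05).

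Adding Vps34-IN1 to methionase cells gave CCN1 a log2 difference of -0.50 ± 0.19 that was not called (limma, adjusted p = 0.112), with a 95% interval of -0.90 to -0.10. The call depended on 1 library: without replicate 3 of the methionase cells with Vps34-IN1 the difference was -0.86 (adjusted p = 0.000651). By group mean, CCN1 was highest in vector cells with Vps34-IN1, and these libraries lay above all others. Methionase cells at 24 h in DMSO and methionase cells with Vps34-IN1 followed and overlapped. The 3 remaining groups lay below these, and among them vector cells in DMSO at 24 h overlapped both 12 h groups.

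CCN2, on chromosome 6 (131948176 to 131951372), codes for the related secreted protein CTGF and carries the 3 TEAD cores shown above. It was a gene of few reads, with 14 to 147 per library. It had 42.7, 61.6 and 103 normalised reads in methionase cells with Vps34-IN1, against 122, 104 and 125 in vector cells with Vps34-IN1. At 24 h in DMSO it had 157, 120 and 77.2 in methionase cells, against 35.5, 33.5 and 28.6 in vector cells. At 12 h it had 30.7, 33.7 and 25.0 in methionase cells, against 26.0, 13.2 and 25.1 in vector cells. The groups did not overlap between methionase and vector cells at 24 h in either setting, and overlapped at 12 h. CCN2 was 3.63-fold higher with methionase at 24 h in DMSO, at 0.93 ± 0.14 on the log2 scale (limma, adjusted p = 1.22e-05), and 3.60-fold higher with Vps34-IN1 in vector cells, at 0.95 ± 0.14 (adjusted p = 9.41e-06). Under Vps34-IN1 methionase lowered it, with a log2 difference of -0.47 ± 0.14 (adjusted p = 0.00934). This call was lost without replicate 1 of the methionase cells with Vps34-IN1, at -0.32 (adjusted p = 0.0869).

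ANKRD1, on chromosome 10 (90912096 to 90921087), codes for an ankyrin repeat protein of the nucleus and the sarcomere. It had the fewest reads of the 10 genes, with 9 to 91 per library. It had 23.5, 36.3 and 67.2 normalised reads in methionase cells with Vps34-IN1, against 54.3, 53.1 and 63.2 in vector cells with Vps34-IN1. In DMSO, ANKRD1 had 97.3, 64.9 and 39.6 in methionase cells at 24 h, against 33.7, 25.1 and 20.3 in vector cells. At 12 h it had 26.9, 39.3 and 22.1 in methionase cells, against 12.1, 9.39 and 8.35 in vector cells. Methionase cells lay above vector cells in DMSO at both times, and the groups overlapped under Vps34-IN1. At 24 h in DMSO the difference was 0.57 ± 0.14 (limma, adjusted p = 0.00239), and Vps34-IN1 in vector cells gave 0.48 ± 0.14 (adjusted p = 0.00901). Under Vps34-IN1 the methionase difference was -0.23 ± 0.14 and was not called (adjusted p = 0.199). Without replicate 3 of the methionase cells with Vps34-IN1 it was called, at -0.41 (adjusted p = 0.0213).

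Genes with few reads appear to change less on the deposited scale than in reads. On the recovered counts (limma voom), the methionase difference at 24 h in DMSO was 1.79 for CCN2 and 1.26 for ANKRD1, and the Vps34-IN1 difference in vector cells was 1.83 for CCN2 and 1.12 for ANKRD1. In methionase cells with Vps34-IN1, all 3 of these target genes were lowest in replicate 1 and highest in replicate 3. In methionase cells at 24 h in DMSO they were all highest in replicate 1.

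At 12 h, methionase changed none of the 10 genes past the threshold (limma), in a comparison that called 2.17% of all genes, 0.681% higher and 1.49% lower. At an unadjusted p below 0.05 ANKRD1 alone passed. ANKRD1 was 2.96-fold higher in methionase cells and its groups did not overlap, with a log2 difference of 0.46 ± 0.14 (adjusted p = 0.0822). It was called when only the groups compared were fitted (adjusted p = 0.00697) and with array quality weights (adjusted p = 0.00441). The CCN1 difference at 12 h was 0.15 ± 0.19 and that of CCN2 0.18 ± 0.14.

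YAP1, on chromosome 11 (102110447 to 102233424), had 1018, 989 and 1297 normalised reads in methionase cells with Vps34-IN1, against 1119, 912 and 964 in vector cells with Vps34-IN1. With DMSO for vehicle, the 24 h values were 1162, 1137 and 1009 in methionase cells, against 997, 1081 and 979 in vector cells. At 12 h it had 1410, 1413 and 1356 in methionase cells, against 1384, 1243 and 1391 in vector cells. The 12 h libraries lay above the DMSO libraries of 24 h, and the groups of the same time overlapped. No methionase or Vps34-IN1 difference of YAP1 was called on the deposited scale (limma). Under Vps34-IN1 the methionase difference was 0.13, with a 95% interval of -0.05 to 0.30. With quantile normalization that difference was called, at 0.24 (adjusted p = 0.0190). The methionase difference at 24 h in DMSO was 0.10 with a 95% interval of -0.07 to 0.28, and the Vps34-IN1 difference in vector cells was -0.03 with an interval of -0.20 to 0.14. YAP1 was lower at 24 h than at 12 h in both, with log2 differences of -0.32 ± 0.08 in methionase cells (adjusted p = 0.00424) and -0.37 ± 0.08 in vector cells (adjusted p = 0.00680).

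TEAD1, on chromosome 11 (12674421 to 12944737), codes for the DNA-binding partner. It averaged 768 normalised reads in methionase cells with Vps34-IN1, against 1152 in vector cells with Vps34-IN1. The groups did not overlap, with a log2 difference of -0.54 ± 0.08 (limma, adjusted p = 1.26e-05). In DMSO at 24 h the means were 835 in methionase cells and 934 in vector cells, a difference of -0.15 ± 0.08 that was not called (adjusted p = 0.148). Vps34-IN1 in vector cells raised TEAD1, by 0.28 ± 0.08 (adjusted p = 0.00760), a call lost without replicate 2 of vector cells with Vps34-IN1 (adjusted p = 0.0511).

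AMOTL2, on chromosome 3 (134355345 to 134375417), codes for a motin that binds YAP and holds it outside the nucleus. It had 315, 328 and 326 normalised reads in methionase cells with Vps34-IN1, against 478, 582 and 572 in vector cells with Vps34-IN1. The 24 h libraries in DMSO had 434, 382 and 408 in methionase cells, against 394, 373 and 362 in vector cells. At 12 h it had 321, 326 and 316 in methionase cells, against 344, 325 and 315 in vector cells. Vector cells with Vps34-IN1 lay above every other library, and methionase cells with Vps34-IN1 overlapped both 12 h groups. Under Vps34-IN1 methionase lowered it, with a log2 difference of -0.63 ± 0.07 (limma, adjusted p = 3.41e-07), the lowest adjusted p among the 10 genes in that comparison. Vps34-IN1 raised it in vector cells, by 0.45 ± 0.07 (adjusted p = 2.36e-05), and the methionase difference in DMSO at 24 h was 0.10 ± 0.07, not called (adjusted p = 0.301).

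AMOTL1, its paralog on chromosome 11 (94706460 to 94876748), ranged from 1232 to 1815 normalised reads. Each neighbouring pair of groups overlapped when the groups were ordered by mean. Under Vps34-IN1, methionase cells lay below vector cells with no overlap, at -0.18 ± 0.07, which was not called (limma, adjusted p = 0.0614). The only AMOTL1 call outside the interactions was a Vps34-IN1 difference of 0.21 ± 0.07 in vector cells (limma, adjusted p = 0.0284), where the groups did not overlap. That call was lost without vector DMSO 24 h replicate 3, at 0.13 (adjusted p = 0.202), and without vector Vps34-IN1 replicate 1 (adjusted p = 0.0606) or replicate 2 (adjusted p = 0.0864).

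LATS2, on chromosome 13 (20973036 to 21061586), codes for a kinase that phosphorylates YAP. It had 262, 265 and 220 normalised reads in methionase cells with Vps34-IN1, against 392, 368 and 323 in vector cells with Vps34-IN1. The values at 24 h in DMSO were 361, 295 and 299 in methionase cells, against 314, 260 and 233 in vector cells. At 12 h it had 301, 324 and 265 in methionase cells, against 265, 273 and 290 in vector cells. Methionase cells lay below vector cells under Vps34-IN1 with no overlap, and the groups overlapped in DMSO at both times. Methionase under Vps34-IN1 lowered LATS2, by a log2 difference of -0.43 ± 0.09 (limma, adjusted p = 0.000809). Vps34-IN1 in vector cells raised it, by 0.34 ± 0.09 (adjusted p = 0.00478). The methionase difference in DMSO at 24 h was 0.19 ± 0.09, not called (adjusted p = 0.102). It was called without vector DMSO 24 h replicate 1, at 0.29 (adjusted p = 0.0293), and with equal library medians, at 0.23 (adjusted p = 0.0492).

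AJUBA, on chromosome 14 (22971177 to 22982551), codes for a LIM domain protein that binds LATS kinases and restrains them. At 24 h it moved against CCN1, CCN2 and ANKRD1 with each treatment alone. It had 380, 361 and 349 normalised reads in methionase cells with Vps34-IN1, against 364, 294 and 276 in vector cells with Vps34-IN1. In DMSO at 24 h it had 425, 376 and 370 in methionase cells, against 620, 619 and 528 in vector cells. At 12 h it had 546, 515 and 522 in methionase cells, against 514, 549 and 440 in vector cells. All libraries of the 3 treated groups at 24 h lay below all libraries of the other 3 groups. Methionase lowered AJUBA at 24 h in DMSO, with -0.51 ± 0.09 on the log2 scale (limma, adjusted p = 5.05e-05), and Vps34-IN1 lowered it in vector cells, by -0.78 ± 0.09 (adjusted p = 1.63e-07). Under Vps34-IN1 the methionase difference was 0.19 ± 0.09 and was not called (adjusted p = 0.0861). It was called without vector Vps34-IN1 replicate 1, at 0.28 (adjusted p = 0.0154). Quantile normalization (adjusted p = 0.03995), equal library medians (0.0434) and array quality weights (0.0379) gave a call too.

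CRIM1, on chromosome 2 (36355778 to 36551135), codes for a transmembrane protein that binds growth factors of the BMP family. Its values split by plasmid at 24 h. It had 458, 448 and 447 normalised reads in methionase cells with Vps34-IN1, against 638, 635 and 662 in vector cells with Vps34-IN1. Without the drug at 24 h it had 530, 517 and 449 in methionase cells, against 664, 709 and 641 in vector cells. At 12 h the values lay between 689 and 707 in methionase cells, against 706 to 789 in vector cells. Methionase lowered CRIM1 in both settings at 24 h, by log2 differences of -0.45 ± 0.07 under Vps34-IN1 (limma, adjusted p = 9.11e-06) and -0.38 ± 0.07 in DMSO (adjusted p = 6.74e-05). The Vps34-IN1 differences were -0.12 ± 0.07 in methionase cells and -0.05 ± 0.07 in vector cells, neither called (adjusted p = 0.273 and 0.585).

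**Figure D2:**
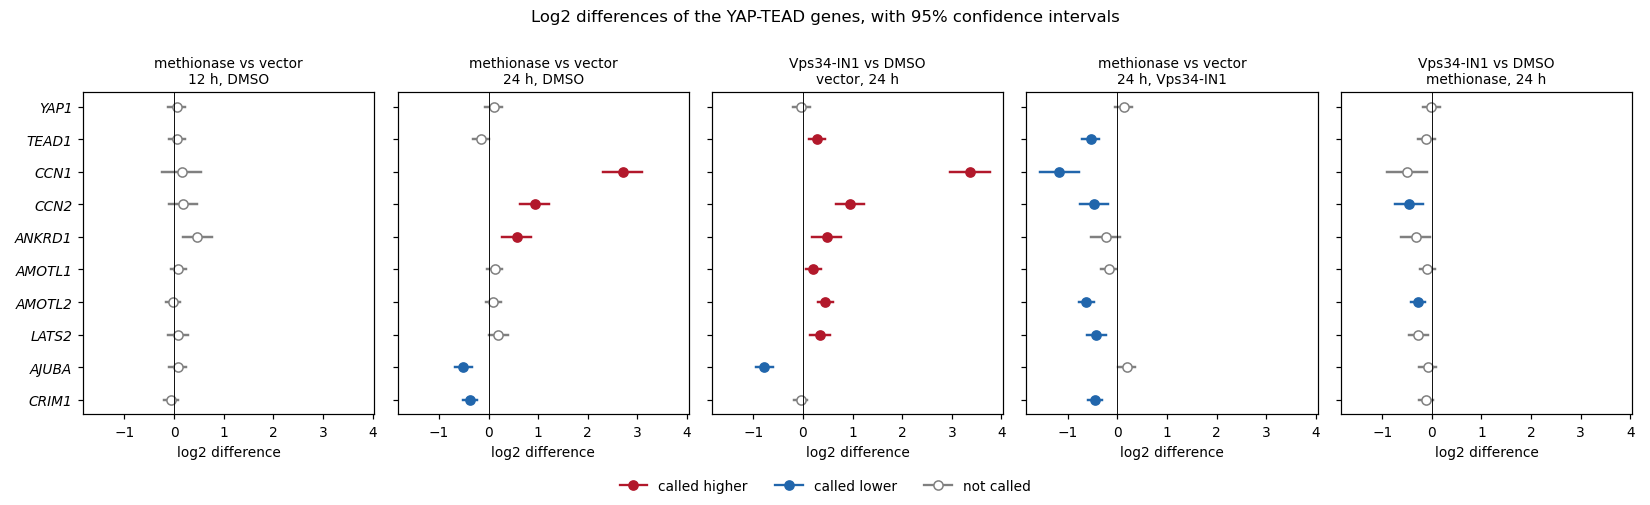
Log2 difference on the variance-stabilised scale (horizontal axis) of each of the 10 genes (vertical axis) in 5 comparisons, with 95% confidence intervals; filled points passed an adjusted p of 0.05. CCN1 reaches 2.702 with methionase in DMSO and 3.37 with Vps34-IN1 in vector cells, and lies at -1.17 with methionase under Vps34-IN1.

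The interaction of methionase and Vps34-IN1 at 24 h was tested directly, as the methionase difference under Vps34-IN1 minus the methionase difference in DMSO. These 2 differences share no library. It was called for 8 of the 10 genes, 7 below 0 and 1 above 0 (limma), where 21.8% of all genes were called, 11.9% below 0 and 9.92% above 0. CCN1 had an interaction of -3.87 ± 0.27 (adjusted p = 8.99e-10) and CCN2 one of -1.40 ± 0.20 (adjusted p = 2.21e-05). AMOTL2 had -0.72 ± 0.10 (adjusted p = 1.91e-05), ANKRD1 -0.81 ± 0.20 (adjusted p = 0.00520) and LATS2 -0.62 ± 0.13 (adjusted p = 0.00149). AJUBA was the gene above 0, at 0.69 ± 0.12 (adjusted p = 0.000227). CRIM1 had -0.07 with a 95% interval of -0.26 to 0.12, and YAP1 0.02 with an interval of -0.22 to 0.27, neither called.

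Read as sums, the separate effects of methionase and Vps34-IN1 on CCN1 came to 6.07 on the log2 scale, and cells with both treatments differed from vector cells in DMSO by 2.20. For CCN2 the sum was 1.88 and the difference with both 0.47. For ANKRD1 they were 1.05 and 0.25. For AJUBA the sum was -1.29 and the difference with both -0.59. For CCN1, CCN2, ANKRD1 and AJUBA, the distance from vector cells in DMSO was thus smaller than the sum. The value with both had the opposite sign to the sum for AMOTL2 (sum 0.54, with both -0.18), LATS2 (0.54 and -0.08) and TEAD1 (0.13 and -0.26). The difference between cells with both treatments and vector cells in DMSO was not tested. For LATS2 the libraries of these groups overlapped. The values were 0.33 and 0.03 for AMOTL1 and 0.07 and 0.10 for YAP1. For CRIM1 the sum of -0.43 was close to the difference with both of -0.50.

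In methionase cells, Vps34-IN1 raised none of the 10 genes and lowered 2 (limma), where 7.93% of all genes were called, 2.95% higher and 4.98% lower. With equal library medians this split over all genes turned to 899 higher and 605 lower, against 523 and 885 on the deposited scale. AMOTL2 had a log2 difference of -0.28 ± 0.07 (adjusted p = 0.0172) and its groups did not overlap. CCN2 had -0.46 ± 0.14 (adjusted p = 0.0442) and its groups overlapped. The CCN2 call was lost without methionase Vps34-IN1 replicate 1, at -0.30 (adjusted p = 0.197), without replicate 2 (adjusted p = 0.111), and without methionase DMSO 24 h replicate 1 (adjusted p = 0.219) or replicate 2 (adjusted p = 0.0938). The AMOTL2 call was lost without methionase DMSO 24 h replicate 1 (adjusted p = 0.0775). Without methionase Vps34-IN1 replicate 3, ANKRD1 was called at -0.51 (adjusted p = 0.0237), and without methionase DMSO 24 h replicate 3 at -0.49 (adjusted p = 0.0457).

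**Figure D3:**
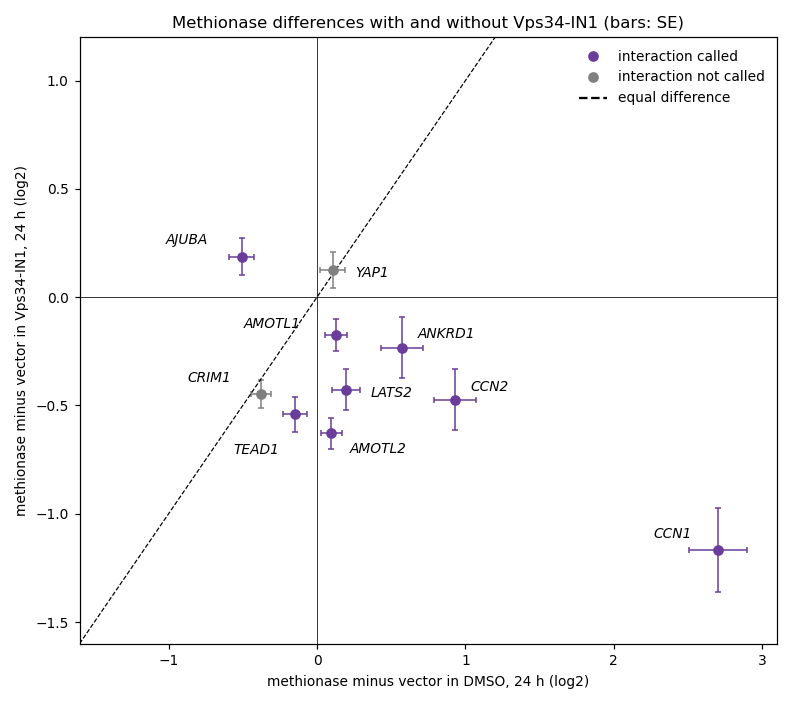
Methionase minus vector log2 difference at 24 h in DMSO (horizontal axis) and under Vps34-IN1 (vertical axis) for the 10 genes, with standard errors; the dashed line marks equal differences. CCN1, CCN2 and ANKRD1 lie to the right of 0 and below 0, AJUBA on the opposite side, and YAP1 and CRIM1 lie near the line.

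In methionase cells in DMSO, 4 of the 10 genes were higher at 24 h than at 12 h and 4 were lower (limma), where 39.8% of all genes were called, 18.4% higher and 21.3% lower. With equal library medians this split turned to 3889 higher and 3269 lower, against 3275 and 3783 on the deposited scale. CCN1 was 8.90-fold higher at 24 h (log2 difference 2.73 ± 0.19, adjusted p = 3.97e-10), CCN2 3.97-fold higher (0.98 ± 0.14, adjusted p = 6.91e-06), ANKRD1 2.28-fold higher (0.52 ± 0.14, adjusted p = 0.00545) and AMOTL2 1.27-fold higher (0.28 ± 0.07, adjusted p = 0.00289). ANKRD1 was not called without methionase DMSO 24 h replicate 1, at 0.35 (adjusted p = 0.0546). YAP1, TEAD1, AJUBA and CRIM1 fell, by 0.32 to 0.43 on the log2 scale. In vector cells YAP1 was the 1 gene of the 10 called, and it was lower at 24 h, where 11.5% of all genes were called, 4.61% higher and 6.88% lower, or 640 higher and 1668 lower with equal library medians, against 818 and 1221. ANKRD1 was 2.65-fold higher at 24 h in vector cells and its groups did not overlap, but its difference of 0.41 ± 0.14 was not called (adjusted p = 0.0610). The interaction of methionase with time was called for CCN1 at 2.55 ± 0.27 (adjusted p = 2.06e-06), CCN2 at 0.75 ± 0.20 (adjusted p = 0.0150), AJUBA at -0.58 ± 0.12 (adjusted p = 0.00304) and CRIM1 at -0.32 ± 0.09 (adjusted p = 0.0272), against 11.7% of all genes, 5.33% above 0 and 6.33% below 0. With equal library medians the split over all genes turned to 1431 above 0 and 722 below 0, against 947 and 1124. For ANKRD1 the time interaction was 0.11, with a 95% interval of -0.31 to 0.52, and its sign turned with voom (-0.24) and without methionase DMSO 24 h replicate 1 (-0.06).

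Other published YAP and TAZ targets moved in both directions. From a list of such genes in the literature, 16 were tested. Vps34-IN1 in vector cells raised 1 of the 16 and lowered 2 (limma), with a median of -0.03. These were 6.25% and 12.5%, against 20.2% and 19.9% of all genes. The gene raised was GADD45A, a stress-induced growth arrest gene, at 1.79 ± 0.13 (adjusted p = 1.73e-10), and those lowered were ARHGEF17, which codes for a guanine nucleotide exchange factor, at -0.60 ± 0.10, and CCDC80, a secreted matrix protein gene, at -0.45 ± 0.10. Methionase at 24 h in DMSO raised 3 and lowered 2, or 18.8% and 12.5%, where 18.1% of all genes were higher and 21.1% lower. Among them were GADD45A at 1.24 ± 0.13, RBMS3, an RNA-binding protein gene, at 0.40 ± 0.09, FJX1, a homologue of the fly gene four-jointed, at -0.65 ± 0.10, and ARHGEF17 at -0.37 ± 0.10. Under Vps34-IN1 methionase raised 3 and lowered 7, or 18.8% and 43.8%, where 17.3% of all genes were higher and 22.2% lower. FJX1 had -0.70 ± 0.10, GADD45A -0.72 ± 0.13, the transcription factor gene FOXF2 -0.33 ± 0.06 and ARHGAP29, which codes for a GTPase-activating protein, -0.34 ± 0.07, while CCDC80 (0.39 ± 0.10), the ecto-nucleotidase gene NT5E (0.24 ± 0.08) and ARHGEF17 (0.24 ± 0.10) were raised. The interaction was below 0 for 4 of the 16, with GADD45A at -1.96 ± 0.18 (adjusted p = 6.15e-08), and above 0 for ARHGEF17 at 0.61 ± 0.14. These were 25.0% below 0 and 6.25% above 0, against 11.9% and 9.92% of all genes.

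Of 20 Hippo kinases and upstream regulators, methionase at 24 h in DMSO raised 2 and lowered 8 (limma), with a median of -0.14. In that comparison 18.1% of all genes were higher and 21.1% lower. MOB1A, the LATS cofactor, had -0.44 ± 0.06, the kinase genes TAOK2 -0.65 ± 0.09 and TAOK1 -0.40 ± 0.07, and STK4, which codes for MST1, -0.47 ± 0.07. The 2 genes raised were FAT4, an atypical cadherin gene, at 0.51 ± 0.10, and STK3, which codes for MST2, at 0.30 ± 0.08. Under Vps34-IN1 methionase raised none and lowered 11, or 55.0%, where 17.3% of all genes were higher and 22.2% lower. Among those lowered were MOB1A (-0.54 ± 0.06), the scaffold gene SAV1 (-0.66 ± 0.09), NF2, which codes for merlin (-0.62 ± 0.08), and the FERM domain gene FRMD6 (-0.48 ± 0.08). Vps34-IN1 in vector cells raised 5 of the 20 and lowered 4, where 20.2% of all genes were higher and 19.9% lower. STK3 rose by 0.55 ± 0.08, and STK4 (-0.40 ± 0.07), TAOK1 (-0.40 ± 0.07), MOB1A (-0.29 ± 0.06) and the Ajuba family gene WTIP (-0.38 ± 0.09) were lowered. The interaction was called for 5 of the 20 genes. Over all genes 21.8% were called, 11.9% below 0 and 9.92% above 0. Among the 5, the interaction was below 0 for STK3 (-0.47 ± 0.11), SAV1 (-0.47 ± 0.12), FRMD6 (-0.44 ± 0.12) and 1 other. For STK4 it was above 0 (0.39 ± 0.10).

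Of the paralogs of YAP1 and TEAD1 and the VGLL cofactors, 5 were tested. WWTR1, which codes for TAZ, had 451 ± 35.4 normalised reads in methionase cells and 533 ± 26.2 in vector cells at 24 h in DMSO (SD, n = 3 each), a log2 difference of -0.21 ± 0.07 (limma, adjusted p = 0.0215). TEAD4 rose with methionase in DMSO, by 0.24 ± 0.07 (adjusted p = 0.00625), and with Vps34-IN1 in vector cells, by 0.29 ± 0.07 (adjusted p = 0.00143). VGLL3, a TEAD cofactor gene, was lowered by Vps34-IN1 in vector cells (-0.55 ± 0.10) and raised by methionase under Vps34-IN1 (0.53 ± 0.10). No drug interaction of these 5 genes was called, where 21.8% of all genes were called, and TEAD2 and TEAD3 were called in none of the 9 comparisons. Among the other CCN genes, CCN3, CCN4 and CCN5 were below the filter, and CCN6 was tested with no call.

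**Figure D4:**
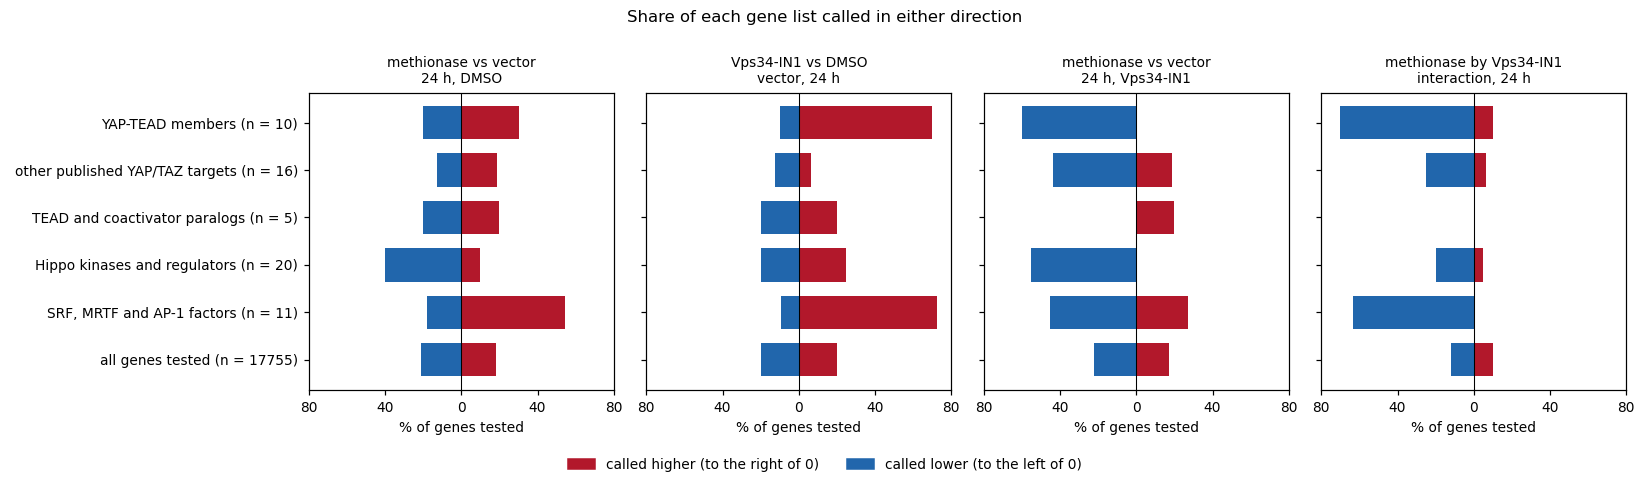
Share of the tested genes of each list (horizontal axis, percent) called higher (right of 0) or lower (left of 0) in 4 comparisons, with all 17755 genes at the bottom. With Vps34-IN1 in vector cells 70.0% of the 10 YAP-TEAD genes were called higher, against 6.25% of the 16 other published targets and 20.2% of all genes. The genes and lists were chosen with earlier results of these data known, so the shares are a description and not a test.

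SRF, MRTF and AP-1 factors share targets with YAP and TEAD. The interaction of methionase and Vps34-IN1 was below 0 for 7 of their 11 genes and above 0 for none (limma). That is 63.6% below 0, against 11.9% of all genes below 0 and 9.92% above 0. Under Vps34-IN1 methionase raised 3 of the 11 and lowered 5, or 27.3% and 45.5%, against 17.3% and 22.2% of all genes. FOS averaged 1119 normalised reads in methionase cells there, against 497.9 in vector cells, unlike JUN and CCN1. JUN, an AP-1 subunit gene, averaged 29760 normalised reads in methionase cells with Vps34-IN1, 56160 in vector cells with Vps34-IN1, 29060 in methionase cells at 24 h in DMSO and 6418 in vector cells at 24 h in DMSO, with an interaction of -3.08 ± 0.20. SRF, the serum response factor gene, had an interaction of -0.78 ± 0.09.

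The genes whose values followed each of the 10 most closely over the 18 libraries were named by Pearson's r, as a description, since the libraries share the treatments. CCN1 was followed by TMEM167B (r = 0.985), GADD45A (r = 0.977) and ERRFI1 (r = 0.9752). CCN2 was followed by SOX4 (r = 0.958), TMEM167B (r = 0.951) and KLF9 (r = 0.951), and AMOTL2 by NDEL1 (r = 0.954), ARID5A (r = 0.949) and TMEM39A (r = 0.938). For AJUBA the nearest were DLG3 (r = 0.962), EDNRA (r = 0.954) and ARHGEF2 (r = 0.952), and for CRIM1 they were ARFGEF2 (r = 0.968), SOAT1 (r = 0.967) and SMCR8 (r = 0.966). ANKRD1 lay nearest to RFFL (r = 0.903), CALCB (r = 0.901) and NR1D1 (r = 0.899). TEAD1 lay nearest to STRN, CECR2 and LRIG3 (r from 0.943 to 0.944), AMOTL1 to KIAA1671, EIF2AK4 and CBL (r from 0.867 to 0.892), and LATS2 to MAN2A1, SEC24A and WASF3 (r from 0.821 to 0.830). YAP1 lay nearest to RAI14, TUBBP1 and RPS27P4 (r from 0.906 to 0.914), of which TUBBP1 and RPS27P4 are named as pseudogenes and may share reads with their parent genes.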

How the data were processed

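Poly-A RNA of 18 HEK293T libraries was sequenced with a dUTP strand-marking kit, per the labels' protocols. The submitters' processing notes name the hg38 build and the tools STAR 2.7.10b, DESeq2, featureCounts and limma without their roles. How strand was used in counting is not given in the sources used here, and a gene may therefore hold reads of an antisense partner. A single table of variance-stabilised log2 values was deposited by the authors, with 5.45 as its lowest value. Of its 37097 lines, 1 named no gene, held at most 0.0022% of a library's reads and was left out. The transformation was undone to recover counts, and 100% of values lay within 0.01 of a whole read. Size factors ranged from 0.89 to 1.1. Dividing counts by them gave the normalised reads. The chi-square per gene between libraries of a group was 2.52 or more, so none was treated as a copy.

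Genes with a mean at least 0.5 above the lowest value were tested, 17755 in all. Fits used limma 3.58.1 (R 4.3.3) on the log2 values of all 18 libraries, with a mean for each group and moderated variances that follow a trend, in 9 comparisons, and Benjamini-Hochberg adjustment within each. The procedure was also run on simulated counts in which few genes were changed, none of them with few reads. These data differ in both respects, so that run does not measure the error rate here. The 10 genes and the other lists were chosen with earlier results of these data known. All 10 were described in every comparison. From each list, up to 4 called genes per comparison with the lowest adjusted p were named, with those against the majority. For each of the 10, the 3 genes with the highest Pearson correlation were named, leaving out clone-type names. Symbols of 36162 genes, including all 10, were found in the GRCh38.p14 gene table, and positions and promoters are RefSeq's. Levels are not per length and are not compared between genes. Alternatives were no filter, a stricter filter at 1, quantile normalization, equal library medians, no variance trend, array quality weights, only the groups compared, a replicate block, limma voom on recovered counts, and each replicate left out. All libraries carry 1 batch label.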

Additional observations from a re-analysis of the deposited data

Results flagged for a closer look

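The effect of methionase differed between Vps34-IN1 and DMSO at 24 h for 8 of the 10 genes, by a test of the interaction itself (limma, adjusted over all genes tested). The differences, methionase effect under Vps34-IN1 minus that in DMSO, were -3.87 for CCN1, -1.40 for CCN2, -0.81 for ANKRD1, -0.72 for AMOTL2, -0.62 for LATS2, -0.39 for TEAD1 and -0.30 for AMOTL1 on the log2 scale, and 0.69 for AJUBA. For TEAD1 the methionase difference was -0.54 under Vps34-IN1 and -0.15 in DMSO. The TEAD1 interaction was lost without vector Vps34-IN1 replicate 2 (limma, adjusted p = 0.0501), and that of AMOTL1 without 8 of the 12 libraries left out in turn (adjusted p from 0.0525 to 0.138). The AMOTL1 interaction was also lost with no filter (adjusted p = 0.0867), quantile normalization (0.0949) and no variance trend (0.0638). Array quality weights (0.0773) and only the groups compared (0.0658) lost it too.

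The effect of methionase also differed between 24 h and 12 h in DMSO for 4 genes, by the same kind of test. The differences, effect at 24 h minus effect at 12 h, were 2.55 for CCN1, 0.75 for CCN2, -0.58 for AJUBA and -0.32 for CRIM1. The CRIM1 value lost its call without 7 of the libraries left out in turn (limma, adjusted p from 0.0538 to 0.0820).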

How the results depend on the processing

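No called result for the 10 genes changed direction under the alternatives tried. Among those not called, 8 crossed 0 in some alternative. YAP1 was at 0.015 with Vps34-IN1 in vector cells and 0.029 with Vps34-IN1 in methionase cells with equal library medians, LATS2 at 0.040 for 24 h against 12 h in vector cells with array quality weights, and the ANKRD1 time interaction at -0.24 with voom. With a replicate left out, the ranges of those 8 were as follows. At 12 h, methionase gave -0.047 to 0.0054 for AMOTL2 and -0.0093 to 0.13 for AJUBA. Vps34-IN1 gave YAP1 -0.12 to 0.058 in methionase cells and -0.11 to 0.027 in vector cells, with an interaction of -0.093 to 0.10. LATS2 ran from -0.13 to 0.042 for 24 h against 12 h in vector cells, and the time interaction from -0.058 to 0.27 for ANKRD1 and -0.037 to 0.10 for AMOTL1. Of 42 called gene results in the 9 comparisons, 32 were called under every alternative, and of 48 not called, 33 were never called. Of 1470 alternative values, 1375 kept direction and side of the threshold, 29 gained a call, 45 lost it and 21 had the opposite sign, and the causes were not tested. The number of the 10 genes called with methionase at 12 h was 0, and 1 with array quality weights and 1 with only the groups compared. With Vps34-IN1 in methionase cells it was 2, and 1 with no filter, equal library medians, no variance trend or voom, 0 with array quality weights and 0 with only the groups compared, and between 0 and 4 with a replicate left out. For 24 h against 12 h in vector cells it was 1, and 2 with equal library medians, 6 with array quality weights, 3 with only the groups compared, and between 1 and 2 with a replicate left out. With voom the CCN2 time interaction was 1.27 and not called (adjusted p = 0.0944).

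Replicate numbers did not pair the samples: over 45 pairs of libraries with the same number, the correlation of deviations ran from -0.31 to 0.35 (median 0.01), and 6 of 18 libraries correlated best with their own number. With a replicate block, AJUBA under Vps34-IN1 was called for methionase (limma, adjusted p = 0.0457), and in methionase cells with Vps34-IN1 LATS2 gained a call (0.0408) and CCN2 lost it (0.0519). Counts over all genes moved by more than 1.5 times for methionase at 12 h, from 385 to between 18 and 238 with a replicate left out, 178 with no filter, 185 with quantile normalization, 247 with no variance trend, 2135 with array quality weights and 1561 with only the groups compared. For Vps34-IN1 in methionase cells the count was 1408, and 625 with array quality weights, 296 with only the groups compared and 860 without methionase DMSO 24 h replicate 3. For 24 h against 12 h in vector cells it was 2039, and 1290 with no filter, 5186 with array quality weights, 3507 with only the groups compared and as few as 798 with a replicate left out. For the time interaction it was 2071, and 3617 with array quality weights and as few as 1276 with a replicate left out. CCN2 and ANKRD1 had few reads, which limits the precision of their values.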
